A study of Mus musculus with 6 samples.

Results

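Mature beta cells keep a small set of widely expressed genes at low levels, often called disallowed genes. The 10 examined here were Hk1, Hk2, Ldha, Slc16a1, Rest, Aldh1a3, Pdgfra, Mest, Acot7 and Oat. They were chosen by name for this known behaviour, with earlier results of these data known. Every probe set whose single gene symbol in the array annotation was one of these names was taken, which gave 19 of the 34945 probe sets with 1 gene symbol, and 10 of 18193 genes. Hk2, Ldha, Mest, Acot7 and Oat had 1 probe set each, Hk1 and Slc16a1 had 2, Aldh1a3 and Pdgfra had 3, and Rest had 4. A further probe set was annotated to Hk1 together with Rpl17 and several pseudogenes and was left out.

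The samples were 3 of whole pancreas from Prox1-OE mice, of genotype Jojo-Prox1 with Ngn3-cre, and 3 from control mice with Ngn3-cre alone, so both groups carried the Cre. All 6 were of NMRI background and 15 days old after birth, and each was hybridised to 1 Affymetrix 3' expression array. Ngn3-cre acts in the progenitors of all endocrine cells of the pancreas, not in beta cells alone, and whole pancreas is mostly exocrine tissue. The question was how gene activity changes in the pancreas when beta cells make too much Prox1, a homeobox protein that binds DNA.

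A beta cell couples insulin release to glucose by burning glucose in its mitochondria. Low-affinity entry into glycolysis and a near absence of lactate production and of lactate or pyruvate uptake keep that coupling specific to glucose, so high-affinity hexokinases (Hk1, Hk2), lactate dehydrogenase A (Ldha) and the monocarboxylate transporter MCT1 (Slc16a1) are kept low. Rest, Aldh1a3, Pdgfra and Mest are instead known from immature, replicating or dedifferentiated beta cells, and Acot7 and Oat are enzymes found low in islets relative to most tissues. An array of whole pancreas averages beta cells with every other cell type, and which cells gave the signal of these genes was not measured. In such bulk tissue, fewer cells of a type and less RNA per cell cannot be told apart.

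Values are log2 probe set summaries, and differences are Prox1-OE minus control with a standard error (SE) or 95% interval from a limma fit of all 45037 non-control probe sets, with p adjusted over all of them by the Benjamini-Hochberg method. Array medians ran from 4.37 to 4.42, Pearson correlations between arrays from 0.988 to 0.994, and the 3' minus 5' difference of control probe sets, which grows as RNA degrades, stood at 0.933 ± 0.012 in Prox1-OE and 0.947 ± 0.037 in control (SD, n = 3 each). An exact two-sided permutation test of it gave p = 0.7, and 3 against 3 arrays cannot go below 0.1. Prox1-OE replicate 1 stood apart on the first principal component, which held 31.4% of the variance (score -42.3, against -6.15 to 21.1 for the other arrays). Control replicate 3 stood apart on the second (-31.9, against -6.93 to 21.1). Exocrine tissue was represented as the label says, with 10 acinar marker genes between percentiles 94.9 and 100 of all probe sets by mean value.

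The targeted gene did not check the labels. The brightest probe set of Prox1 read 5.30, 4.98 and 5.31 in Prox1-OE and 5.61, 4.90 and 4.90 in control, with a difference of 0.06 ± 0.19 (SE, limma adjusted p = 0.974). The groups overlapped. The other probe sets of Prox1 differed by 0.02 and -0.03. Nothing in the labels says whether these probe sets lie within the transcript of the transgene.

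None of the disallowed genes passed the threshold in either direction. Of their 19 probe sets, 0 had a limma adjusted p under 0.05, where 5 of all 45037 did (0.0111%), and adjusted p ran from 0.777 to 0.998. At an unadjusted p under 0.05, 1 of the 19 (5.26%) remained, against 6.15% of all probe sets. The groups did not overlap for that same probe set, again 1 of 19, against 11.4% of all probe sets. The differences were positive for 11 probe sets and negative for 8, with a median of 0.01, beside a median of -0.02 over all probe sets.

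Probe sets differ in the share of their signal that is background, so their brightness decides what can be seen. Of the 10 genes, 8 had a brightest probe set above the median of all probe sets, from Rest and Hk2 near percentile 80 to Ldha at 97.8. Hk1 and Aldh1a3 did not: their brightest probe sets lay at percentiles 44.9 and 45.6. For the 8 brighter genes the 95% intervals of the difference together spanned -0.38 to 0.56 on the log2 scale. Each gene's own interval was narrower than this joint span.

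**Figure D1:**
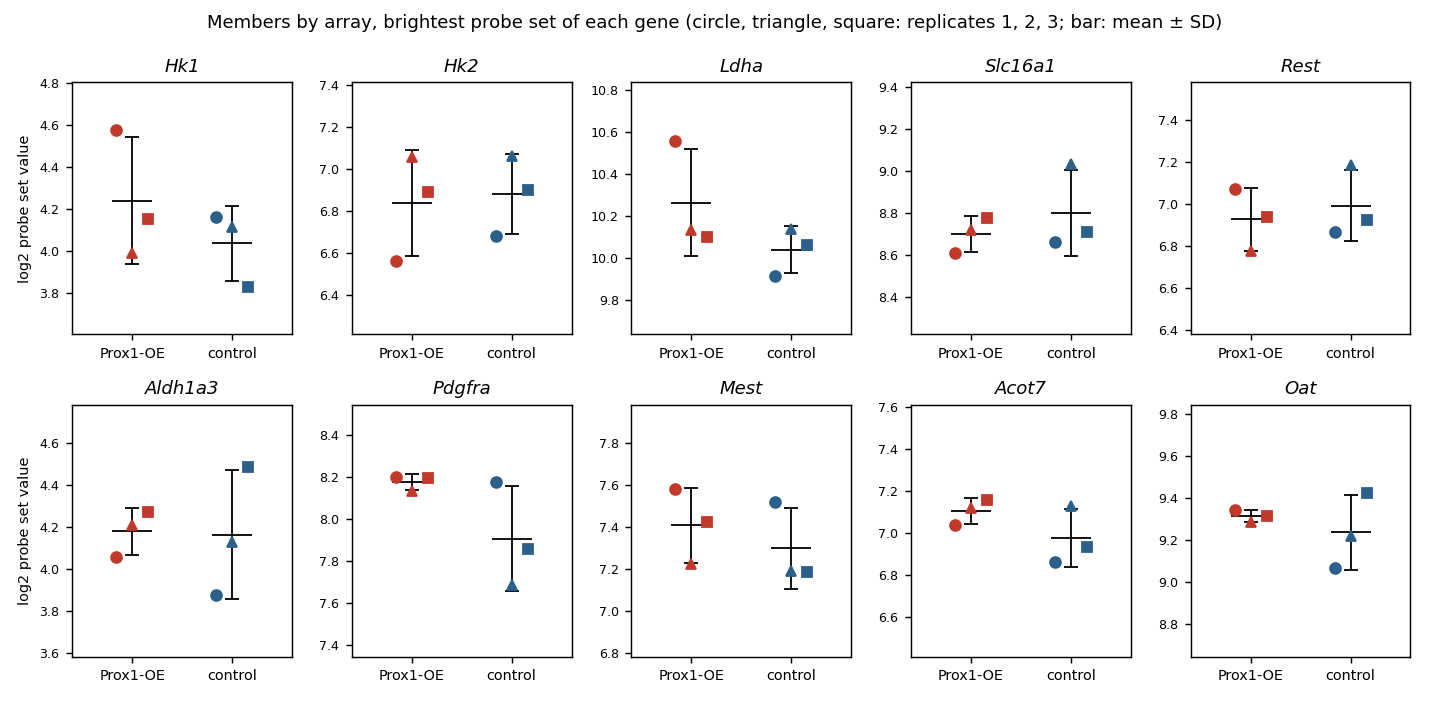
Log2 values of the brightest probe set of each of the 10 genes on the 6 arrays, 3 Prox1-OE (red) and 3 control (blue), with the mean ± SD of each group. Each panel spans 1.2 log2 units on its own axis. The groups overlap in all 10 panels, and Ldha and Hk1 are highest on Prox1-OE replicate 1 (circle).

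Glucose phosphorylation came first in the order of roles. Hk2, the hexokinase of muscle and fat and of many dividing cells, read 6.56, 7.06 and 6.89 in Prox1-OE pancreas and 6.68, 7.06 and 6.90 in control. The groups overlapped almost fully, with the lowest value of each on replicate 1, and the difference was -0.04 ± 0.15 (SE, 95% interval -0.38 to 0.30, limma adjusted p = 0.979).

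Hk1, the hexokinase of brain and red cells, read 4.57, 3.99 and 4.15 in Prox1-OE and 4.16, 4.12 and 3.83 in control on its brighter probe set. Prox1-OE replicate 1 was above all other arrays, and the other Prox1-OE arrays lay within the controls. The difference was 0.20 ± 0.16 (SE, limma adjusted p = 0.862), and 0.04 without Prox1-OE replicate 1. The dimmer probe set of Hk1, at percentile 17.3, differed by 0.14 ± 0.14, with its highest value (3.57) on Prox1-OE replicate 2, and by 0.01 without that array. Hk3, the hexokinase of myeloid cells, differed by -0.04 ± 0.10 (limma adjusted p = 0.968).

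Of the lactate pair, Ldha makes lactate from pyruvate and Slc16a1 carries both across the cell membrane. Ldha read 10.56, 10.14 and 10.10 in Prox1-OE and 9.92, 10.14 and 10.07 in control. Prox1-OE replicate 1 was the highest array by 0.42, while the other Prox1-OE arrays lay just below the highest control. The difference was 0.23 ± 0.14 (SE, 95% interval -0.08 to 0.53, limma adjusted p = 0.830), and 0.08 without Prox1-OE replicate 1. That array was also the highest for the marker lists of B cells (1.33 above the control mean, against 0.19 and 0.44 on the other Prox1-OE arrays), macrophages (1.05, against 0.38 and 0.44) and fibroblasts (0.51, against 0.01 and 0.11). For macrophages and B cells, the list means of all 3 Prox1-OE arrays lay above every control (controls -0.16 to 0.15 and -0.03 to 0.04). Of 12 macrophage genes, 11 were positive, and the groups did not overlap for 7 (58.3%, against 12.1% of all genes). Of 9 B cell genes, 6 were positive and 3 negative, and the groups did not overlap for 3 (33.3%). The means of 5 of these 9 lay below the median brightness. The part of these cells in the Ldha value was not tested.

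Slc16a1 read 8.61, 8.72 and 8.78 in Prox1-OE and 8.66, 9.04 and 8.71 in control. Control replicate 2 was alone at the top and the other 5 arrays lay within 0.17 of each other. The difference was -0.10 ± 0.12 (SE, 95% interval -0.37 to 0.17, limma adjusted p = 0.914). The second probe set of Slc16a1, at percentile 8.5, read between 2.91 and 3.09 on every array. The heart-type subunit of lactate dehydrogenase, Ldhb, differed by -0.17 ± 0.12 and Slc16a3, which exports lactate from glycolytic cells, by -0.12 ± 0.10 (limma adjusted p = 0.842 and adjusted p = 0.865). Slc16a3 was dim, at percentile 21.1.

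In 1 promoter window each, the genes of this lactate pair held the palindrome CACGTG bound by E-box factors. Its letters also hold the core ACGTG of the hypoxia response element. The motifs were chosen after the windows were seen, so this sharing is a description and not a test. Windows of 300 bases around the annotated start (250 before, 50 after; RefSeq, GRCm38.p6) were listed for 8 of the 10 genes, 12 windows in all; Rest and Aldh1a3 were not analysed here. CACGTG stood in 2 of the 12 windows, 1 each of Ldha and Slc16a1, and in no window of the other genes, against 7.15% of all 32851 windows. ACGTG, searched on both strands and overlapping CACGTG, stood in 5 of the 12 windows, against 19.6% of all windows. These belonged to Hk1, Hk2, Ldha, Oat and Slc16a1. The motif holds the pair CG, which these windows held 20 to 42 times, against a median of 7 over all windows. All windows are thus not a matched background for it. The 250 bases upstream of the start are shown for the pair because no other windows here hold the palindrome, which is in capitals: Ldha at chr7:46845554-46845803 and Slc16a1 at chr3:104638414-104638663, both on the plus strand.
Ldha: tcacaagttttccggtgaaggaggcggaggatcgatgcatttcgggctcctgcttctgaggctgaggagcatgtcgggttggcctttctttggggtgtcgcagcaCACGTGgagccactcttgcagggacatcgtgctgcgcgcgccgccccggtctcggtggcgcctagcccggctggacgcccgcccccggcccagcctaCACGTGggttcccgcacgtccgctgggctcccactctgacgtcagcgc
Slc16a1: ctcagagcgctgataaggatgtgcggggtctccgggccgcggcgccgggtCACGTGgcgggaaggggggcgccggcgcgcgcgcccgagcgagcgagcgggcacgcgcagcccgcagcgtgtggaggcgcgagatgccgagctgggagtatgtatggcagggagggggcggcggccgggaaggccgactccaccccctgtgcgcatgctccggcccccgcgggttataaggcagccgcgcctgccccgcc
The Ldha window shown holds the palindrome 2 times and that of Slc16a1 holds it 1 time. A second window of Ldha, at 56.7% GC, held 0 matches of either motif. The windows of the pair with the palindrome were GC-rich, at 67.3% and 73.7% GC over the 300 bases. The Hk2 window also had 67.3%. The median of all windows was 52.7%, and the 12 windows of the disallowed genes ran from 51.0% to 73.7%, with 10 above that median. These matches describe letters and not binding, and no measurement in these arrays bears on binding there.

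Around these enzymes, 20 measured genes of glycolysis and pyruvate handling gave 0 calls in either direction (4 of 18193 genes, 0.022%, were called by their brightest probe set), with 13 negative and 7 positive differences and a median of -0.04 (-0.01 over all genes, each by its brightest probe set). The smallest p values belonged to Pdk3, a kinase that switches off pyruvate dehydrogenase (-0.47 ± 0.12, limma adjusted p = 0.772), and Pfkm, a phosphofructokinase subunit (-0.27 ± 0.10, limma adjusted p = 0.777). Pfkm read 6.08, 5.94 and 6.19 in Prox1-OE and 6.34, 6.31 and 6.38 in control, so its groups did not overlap. Those of Pdk3 did not overlap either, which made 2 of the 20 genes, where 12.1% of all genes had no overlap. Neither gene passed. Of 9 other monocarboxylate and glucose transporters, 0 passed. Slc2a2, the glucose transporter of beta cells, read 5.49, 5.14 and 4.79 in Prox1-OE and 6.31, 6.57 and 6.22 in control (-1.23 ± 0.18 SE, limma adjusted p = 0.370 over all probe sets), and Slc16a10, a transporter of aromatic amino acids, differed by -0.33 ± 0.11 (limma adjusted p = 0.777).

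**Figure D2:**
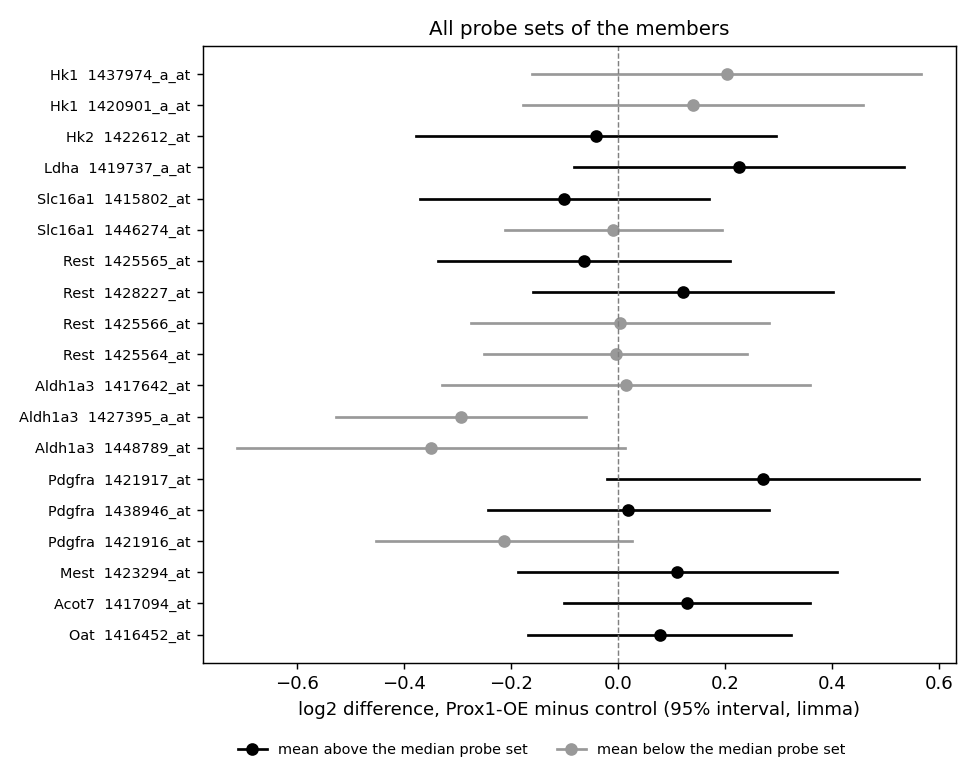
Log2 difference between Prox1-OE and control with its 95% interval from limma for all 19 probe sets, in black where the probe set's mean lay above the median of all probe sets and in grey where it lay below. All intervals reach 0 except that of 1 dim Aldh1a3 probe set (-0.53 to -0.06), whose adjusted p was 0.777.

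Rest encodes the repressor that silences neuronal genes outside the nervous system, and its absence lets endocrine cells make neuronal secretion proteins. Its brightest probe set read 7.07, 6.78 and 6.94 in Prox1-OE and 6.87, 7.18 and 6.92 in control, and the groups overlapped (-0.06 ± 0.12 SE, 95% interval -0.34 to 0.21, limma adjusted p = 0.952). The second, of like brightness, read 6.84, 6.76 and 6.73 in Prox1-OE and 6.41, 6.71 and 6.85 in control (0.12 ± 0.12, limma adjusted p = 0.898). These brighter probe sets of Rest thus differed in sign, neither by more than its standard error. The dimmer ones, at percentiles 34.6 and 16.4, both differed by 0.00.

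The corepressors that work with REST gave 0 calls among 8 measured genes, with Hdac1, a histone deacetylase, at 0.19 ± 0.12 and Rcor3, a relative of CoREST, at -0.18 ± 0.11 (limma adjusted p = 0.833 for each). Among 16 genes that REST is known to repress outside neurons and endocrine cells, 15 had a negative difference and 1 passed the threshold. Over all genes by their brightest probe set, 9791 of 18193 were negative and 4 (0.022%) passed. The groups did not overlap for 4 of the 16 (25.0%, against 12.1% of all genes), and 7 of the 16 lay below the median brightness. Chga, which encodes chromogranin A of secretory granules, read 7.41, 7.66 and 7.28 in Prox1-OE and 9.17, 8.94 and 8.76 in control and fell by 1.51 on the log2 scale (SE 0.14, limma adjusted p = 0.0311), with no overlap. Leaving out any array except control replicate 3 ended the call, with a limma adjusted p between 0.0772 and 0.218, while the difference stayed between -1.61 and -1.40. Snap25, of the vesicle fusion machinery, differed by -0.38 ± 0.12 (limma adjusted p = 0.777), at percentile 38.5. The list's median was -0.08, against -0.01 over all genes. Genes of mature beta cells, which make many of the same proteins, were negative for 13 of 13 members, with 0 past the threshold and a median of -0.28. The core of the RE1 element, the site bound by REST, searched on both strands with no mismatch, was in none of the 12 windows of the disallowed genes and in 0.0365% of all windows.

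Aldh1a3 encodes a retinaldehyde dehydrogenase that is raised in dedifferentiated beta cells of diabetic mice. Its brightest probe set read 4.06, 4.21 and 4.27 in Prox1-OE and 3.88, 4.13 and 4.49 in control. The controls held both the lowest and the highest value, and the difference was 0.01 ± 0.15 (SE, 95% interval -0.33 to 0.36, limma adjusted p = 0.994). The second probe set was the 1 of 19 whose groups did not overlap: it read 3.42, 3.42 and 3.37 in Prox1-OE and 3.56, 3.87 and 3.66 in control (-0.29 ± 0.10 SE, unadjusted p = 0.0196, limma adjusted p = 0.777). The third read 3.30, 3.26 and 3.03 in Prox1-OE and 3.59, 3.21 and 3.84 in control (-0.35 ± 0.16, limma adjusted p = 0.809). All 3 lay below the median brightness, at percentiles 45.6, 28.8 and 22.5, and the brightest did not share the sign of the others. Of 11 other genes of retinaldehyde and retinoic acid metabolism 0 passed, with Stra6, a receptor for the retinol carrier, at -0.23 ± 0.11 and Rdh11, a retinal reductase, at 0.24 ± 0.13 (limma adjusted p = 0.812 and adjusted p = 0.813). Stra6 lay at percentile 46.2.

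Pdgfra, the receptor for platelet-derived growth factor that drives replication of young beta cells and marks fibroblasts throughout the body, had the largest positive difference of the 19 probe sets. Its brightest probe set read 8.20, 8.13 and 8.19 in Prox1-OE and 8.18, 7.69 and 7.85 in control. The Prox1-OE arrays lay within 0.07 of each other, while control replicate 1 reached them and the other controls did not. The difference was 0.27 ± 0.13 (SE, 95% interval -0.02 to 0.56, limma adjusted p = 0.812). Without control replicate 1 it was 0.41, and without control replicate 2, the lowest array, it was 0.16. With the probe sets of Pdgfra averaged, it was 0.03.

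The dimmer probe sets of Pdgfra did not follow the bright one. At percentile 51.1 the difference was 0.02 ± 0.12, and at percentile 41.9 it was -0.21 ± 0.11 (limma adjusted p = 0.989 and adjusted p = 0.812). Fibroblast and stellate cell markers were positive for 11 of 12 genes with 0 past the threshold, and all 12 lay above the median brightness. Relative to the controls, they averaged 0.51, 0.01 and 0.11 in the Prox1-OE arrays and 0.10, -0.13 and 0.04 in the controls themselves. The controls of the fibroblast list stood in the same order as those of Pdgfra, but its Prox1-OE arrays were spread 0.50 apart. The part of these cells in the Pdgfra value was not tested. Of the ligands, the other PDGF receptor and Ezh2, 0 of 6 passed, and Pdgfa, a ligand, differed by 0.25 ± 0.11 and Pdgfd, another ligand, by 0.13 ± 0.13 (limma adjusted p = 0.809 and adjusted p = 0.898).

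**Figure D3:**
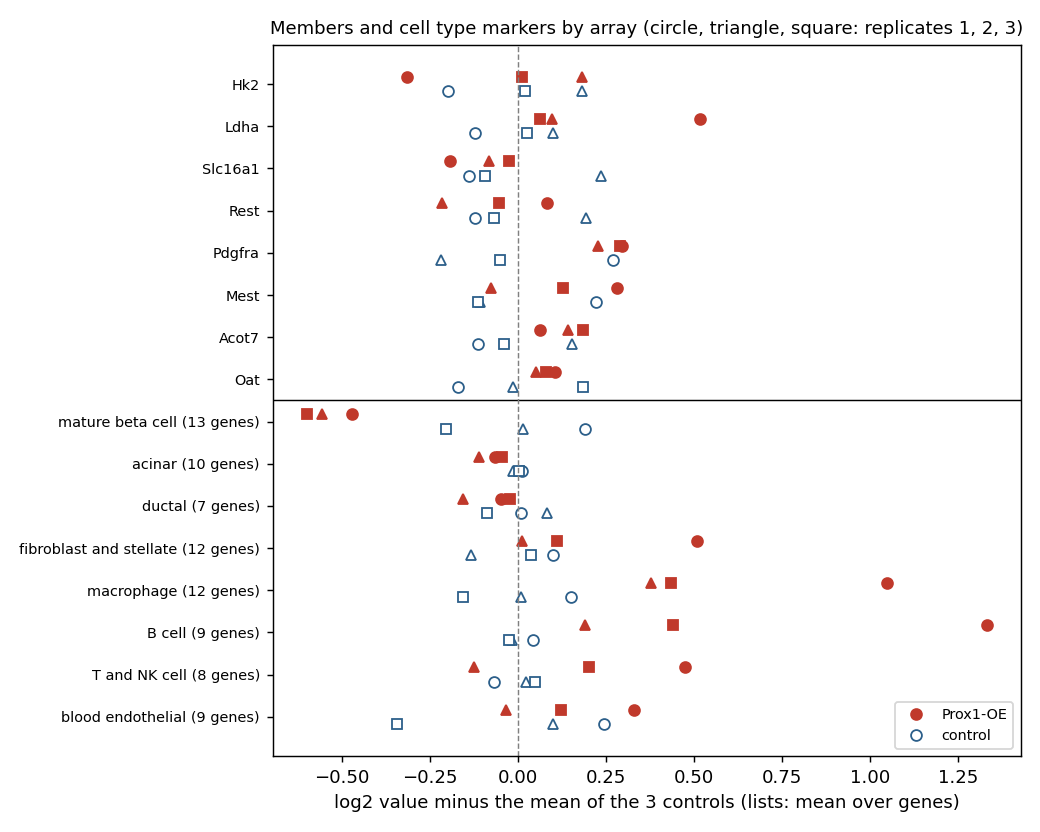
Log2 value minus the mean of the 3 controls on each array, for the 8 disallowed genes with a brightest probe set above the median (top) and for the means of 8 cell type marker lists (bottom), Prox1-OE in filled red above control in open blue. Prox1-OE replicate 1 (circle) reaches 1.33 for B cell and 1.05 for macrophage markers, and 0.52 for Ldha.

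Mest is an imprinted gene, read from the paternal copy and high in growing tissues. It read 7.58, 7.22 and 7.43 in Prox1-OE and 7.52, 7.19 and 7.19 in control. The top array of each group was replicate 1, the groups overlapped, and the difference was 0.11 ± 0.13 (SE, 95% interval -0.19 to 0.41, limma adjusted p = 0.914). It was 0.03 without Prox1-OE replicate 1 and 0.22 without control replicate 1, and between these values without any other array. Of 18 other imprinted genes 0 passed, with 11 negative and 7 positive differences. Nnat, which encodes neuronatin of endocrine cells, read 3.53, 3.32 and 3.24 in Prox1-OE and 4.15, 4.01 and 3.72 in control (-0.60 ± 0.13, limma adjusted p = 0.772), at percentile 32.4. Plagl1, a growth-restraining zinc finger factor, read 9.90, 9.55 and 9.91 in Prox1-OE and 10.20, 10.04 and 10.38 in control (-0.41 ± 0.13, limma adjusted p = 0.777). The groups did not overlap for either gene, nor for 5 of the 18 in all (27.8%, against 12.1% of all genes by their brightest probe set). Of the other 3, named after their values were seen, Phlda2 and Asb4 were lower and Zim1 was higher in Prox1-OE, all with means below the median of all probe sets.

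Acot7 and Oat are metabolic enzymes, the first cleaving long-chain acyl-CoA and the second turning ornithine into a precursor of glutamate and proline. Acot7 read 7.04, 7.12 and 7.16 in Prox1-OE and 6.86, 7.13 and 6.94 in control, so that 1 control lay among the Prox1-OE arrays (0.13 ± 0.10 SE, 95% interval -0.10 to 0.36, limma adjusted p = 0.862). The difference was 0.07 without control replicate 1 and 0.21 without control replicate 2. Oat read 9.34, 9.28 and 9.31 in Prox1-OE and 9.06, 9.22 and 9.42 in control (0.08 ± 0.11, 95% interval -0.17 to 0.32, limma adjusted p = 0.931). The 3 Prox1-OE values of Oat all lay between the middle and the highest control. Among 13 acyl-CoA thioesterases and synthetases 0 passed, with Acot2 of mitochondria at -0.18 ± 0.13 and Acot1 of the cytosol at -0.15 ± 0.14. Among 10 genes of ornithine, proline and arginine metabolism 0 passed, with Arg1, an arginase, at 0.35 ± 0.14 (limma adjusted p = 0.801) and Glul, glutamine synthetase, at 0.20 ± 0.15 (limma adjusted p = 0.855). Arg1 lay at percentile 44.2.

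A wider list of 25 other genes reported low in islets relative to other tissues gave 0 calls, with 16 positive and 9 negative differences and a median of 0.10. In either direction, 7 of the 25 had an unadjusted limma p under 0.05 (28.0%, against 6.72% of all genes). The groups did not overlap for 6 of them (24.0%, against 12.1% of all genes). The disallowed genes had 7 positive and 3 negative by their brightest probe sets and a median of 0.09, and all measured genes a median of -0.01. Parp3, a poly(ADP-ribose) polymerase, read 5.73, 5.52 and 5.23 in Prox1-OE and 4.87, 5.09 and 4.59 in control (0.64 ± 0.16, limma adjusted p = 0.772), and Smoc2, a matrix protein, differed by 0.45 ± 0.13 (limma adjusted p = 0.777). Relative to the controls, these 25 genes averaged 0.34 for Prox1-OE replicate 1 and 0.00 and 0.11 for its fellow arrays, with the controls themselves between -0.07 and 0.10. The immune and fibroblast marker lists also peaked on that array, and their part in this list was not tested. Of 5 measured genes of immature or dedifferentiated beta cells, 0 passed and 4 were negative, among them Neurog3, the endocrine progenitor factor (-0.17 ± 0.10, limma adjusted p = 0.829), and Sox9, of progenitors and ducts (-0.21 ± 0.14, limma adjusted p = 0.842). The means of 3 of the 5 lay below the median brightness, with Neurog3 at percentile 38.5.

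**Figure D4:**
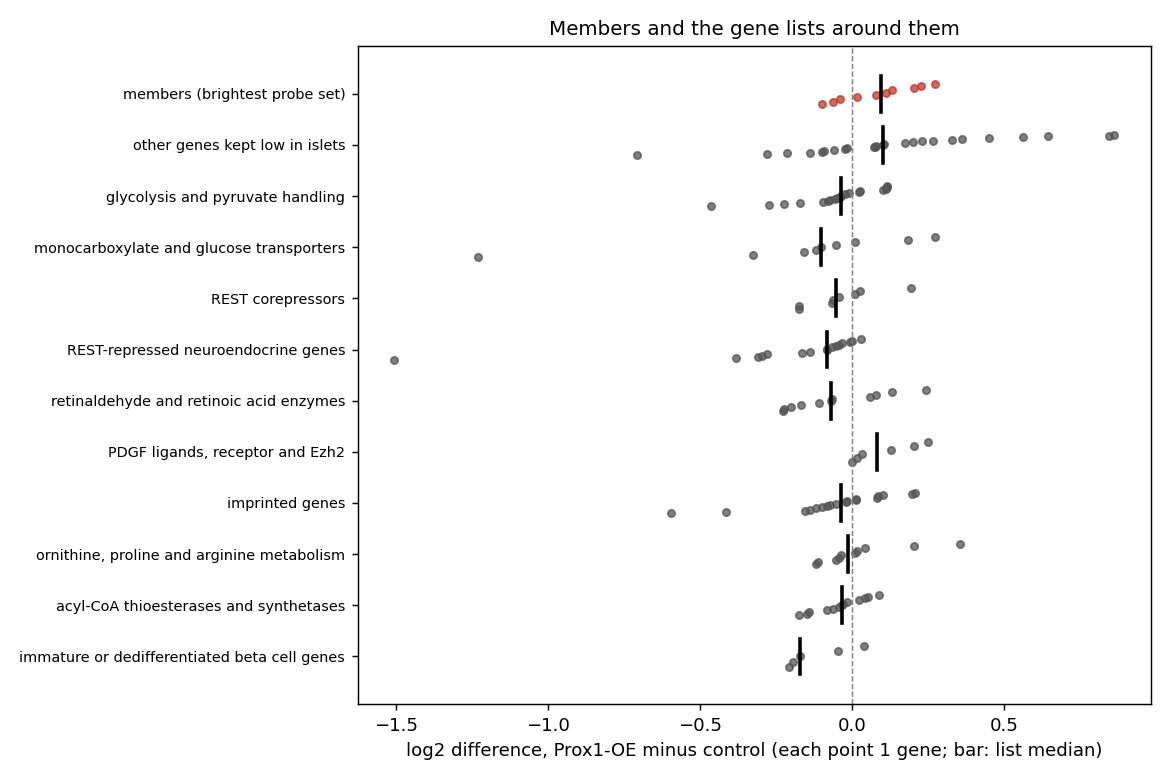
Log2 difference between Prox1-OE and control for each disallowed gene (red) and for each measured gene of 11 lists around them (grey), by the gene's brightest probe set, with a bar at each list's median. The disallowed genes run from -0.10 to 0.27, and the points farthest left are Chga (-1.51) and Slc2a2 (-1.23).

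Of the 13 measured genes of mature beta cells, 7 had groups that did not overlap (53.8%, against 12.1% of all genes), all lower in Prox1-OE, and the same number had an unadjusted p under 0.05, though none passed. Among them, named after their values were seen, G6pc2, which encodes the islet form of glucose-6-phosphatase, stood at -1.40 ± 0.31, Slc30a8, which loads zinc into insulin granules, at -1.05 ± 0.19 and Nkx6-1, a transcription factor of beta cells, at -0.67 ± 0.11. Ins2, the abundant insulin gene, was among the genes with overlap: it read 13.04, 12.72 and 12.77 in Prox1-OE and 13.44, 13.02 and 12.62 in control (-0.18 ± 0.19 SE, limma adjusted p = 0.902). The probe set of Ins2 can also bind near-identical transcripts.

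Only Hk1, Ldha, Aldh1a3 and Pdgfra had a brightest probe set that spanned at least 0.5 log2 units over the 6 arrays. For these, the profiles most like theirs were sought among 11480 genes above the median brightness, by the root mean square difference of mean-centred log2 values over the 6 arrays. Ankrd10 (0.02) and Rbm33 (0.02) were closest to Hk1, and Plekha3 (0.03) and Tmem184b (0.05) to Ldha. Best1 (0.04) and Dnah11 (0.05) were closest to Aldh1a3, and Htra1 (0.06) and Mllt6 (0.07) to Pdgfra. With 6 arrays and so many genes, close profiles are readily found, and these are given as a description only.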

How the data were processed

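The deposited table held log2 summaries per probe set for 6 arrays, 1 per sample, labelled from 100 ng of total RNA per the labels' protocols. RMA and Partek 6.5 were named in the submitters' processing notes, without settings. RMA equalises the arrays' distributions, so a change of total RNA cannot be seen, and it compresses differences of dim probe sets. The genome build behind the array is not given in the sources used here.

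From the 45101 probe sets, 64 controls were left out. The groups were compared over the rest with limma 3.58.1 in R 4.3.3 (lmFit, then eBayes, two-sided, no covariate, no filter on dim probe sets, Benjamini-Hochberg at 0.05). For lists, the probe set with the highest mean stood for the gene. The fit was tested on simulated data. Nothing in the labels said whether samples came from separate animals, and p-values then cover only the spread between these arrays, whose number limits the precision. Members, lists, markers and tests were chosen with earlier results of these data known. The genes named were the members, Prox1, comparison genes (Ins2, Slc2a2, Ldhb, Slc16a3, Hk3), list genes past the threshold, the 2 genes of each pathway list (not of the cell type marker lists) with the smallest p, and profile neighbours of members spanning 0.5 or more. The promoter motifs were chosen after the windows were seen. Other settings were other summaries per gene, a brightness filter, renormalization, eBayes and weighting options, a replicate block, a threshold of 0.1 and leaving out each array.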

Additional observations from a re-analysis of the deposited data

How the results depend on the processing

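No disallowed gene passed the threshold under any of the 15 other settings. The threshold of 0.1 kept the reported fit, and 0 of the 19 probe sets passed it. The settings that changed the fit gave 239 combinations of probe set and setting. Of these, 0 were past the threshold, the lowest limma adjusted p was 0.704, and 207 had the sign of the reported difference. Of the 19 probe sets, 9 kept their sign in every setting that fitted them, 11 to 14 settings each. Of these, 6 were positive (Ldha, Mest, Acot7, both of Hk1 and the brightest of Pdgfra) and 3 negative (the dimmer ones of Aldh1a3 and the dimmest of Pdgfra). Differences near 0 changed sign. With the probe sets of each gene averaged, Rest was at 0.014 (-0.06 by its brightest) and Aldh1a3 at -0.21 (0.01 by its brightest), while Pdgfra kept its sign at 0.03 (0.27 by its brightest). The dim probe set of Slc16a1 was at 0.0164 with quantile normalization again, 0.0094 with median centring and 0.0036 with array weights. The dimmest probe set of Rest was at 0.0235 with quantile normalization again and 0.0139 with median centring. With array weights, the third probe set of Rest was at -0.0172 and the second of Pdgfra at -0.0067.

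Without 1 array, the difference ran from -0.15 to 0.10 for Hk2, from -0.17 to 0.017 and from -0.057 to 0.029 for the brighter and dimmer probe sets of Slc16a1, and from -0.0071 to 0.17 for Oat. For Rest it ran from -0.14 to 0.032, -0.004 to 0.22, -0.11 to 0.067 and -0.075 to 0.052, from brightest to dimmest. It ran from -0.13 to 0.18 for the brightest probe set of Aldh1a3 and from -0.091 to 0.10 for the second of Pdgfra. The cause of these sign changes was not tested.

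Over all probe sets, 5 passed in the reported fit, 0 without any one Prox1-OE array, 1 without control replicate 1 or 2 and 8 without control replicate 3. With the replicate number as a block 2 passed, and 0 of the disallowed genes; Chga had a limma adjusted p of 0.0698 there. The settings were applied to Chga after the data were seen. Deviations from the group means of same-numbered samples correlated at 0.06, 0.17 and 0.10, and those of other pairs between -0.135 and 0.021. Each sample thus correlated best with its own number. The same-number values were not all above 0.1 and the reported fit took no pairing, but whether the numbers pair the samples was not settled. Dim probe sets, among them all of Hk1 and Aldh1a3, limit what could be seen.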
